A study of Homo sapiens with 4 samples.

Results

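The genes described here are 10 immediate early genes outside the FOS and JUN families: SRF, EGR1, EGR3, KLF6, IER2, IER3, BTG2, MCL1, ZFP36 and ZFP36L1. They were chosen by name, with earlier results of these data known. Every APC ChIP peak that the authors' annotation assigned to them was taken from both peak lists. These were 29 of 6263 peaks in replicate 1 and 40 of 8393 peaks in replicate 2. ChIP-seq was used to locate DNA associated with APC, a tumor suppressor and negative regulator of WNT signaling, in HCT-116, an established human colon carcinoma line. All samples were APC wild-type and CTNNB1ΔSer45, which means that β-catenin resists degradation and WNT signaling is constantly active. None received an APC knockdown or an added stimulus. According to the methods, cells were maintained in medium with 10% FBS, so serum was present. The groups were APC ChIP and pre-cleared input, with 2 biological replicates of each. According to the methods, replicates were prepared several months apart, so replicate and date cannot be told apart. The antibody was polyclonal and directed to the C terminus of APC.

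Immediate early genes are transcribed soon after a growth factor or stress signal reaches the cell, without the need for new protein. Many are switched on by SRF, which binds the CArG box of the serum response element together with ETS cofactors that MAP kinases phosphorylate, and many encode transcription factors such as those of the EGR and KLF families. Others end the response: ZFP36 and ZFP36L1 bind AU-rich elements in mRNA and speed its decay, and many of the mRNAs they bind are themselves immediate early products. AP-1, formed by FOS and JUN family proteins, is a product of the same program and acts on many of its genes.

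Replicate 2 held more and wider peaks than replicate 1 across the genome, with median widths of 532 and 371 bp. Width was the measure of each peak, since the lists carried no read count, p-value or enrichment, so depth was unknown. Values of the input libraries were not analysed here. With 1 condition there was no contrast to test, and differences below are between 2 cultures or against all peaks or genes, given as descriptions. A peak was called shared when the nearest peak centre of the other replicate lay under 400 bp away. The ChIP reads show where DNA was recovered with the antibody and not whether a gene was transcribed.

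The 10 genes divided into 5 with a region shared by both cultures and 5 without. IER2, IER3, KLF6, ZFP36 and ZFP36L1 had at least 1 shared region, against 2201 of 19257 protein-coding genes (11.4%). In replicate 1, 6 of the 10 genes had a peak, against 17.1% of protein-coding genes, and in replicate 2, 8 had a peak, against 20.5%. SRF had a peak in replicate 1 alone, EGR1, EGR3 and MCL1 had a peak in replicate 2 alone, and BTG2 had none. In all, 21 regions were shared. They made up 72.4% of the 29 replicate 1 peaks (exact Clopper-Pearson 95% interval 52.8 to 87.3%, counting error only), against 63.6% of all replicate 1 peaks. They made up 52.5% of the 40 replicate 2 peaks (interval 36.1 to 68.5%), against 45.5% of all replicate 2 peaks. Both intervals include the share for all peaks, so the sharing of these peaks could not be told from that of peaks in general. The intervals treat peaks as independent, although many belong to 1 locus. ZFP36L1 alone carried 12 of the 21 shared regions, IER3 carried 4, IER2 and ZFP36 carried 2 each and KLF6 carried 1.

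**Figure D1:**
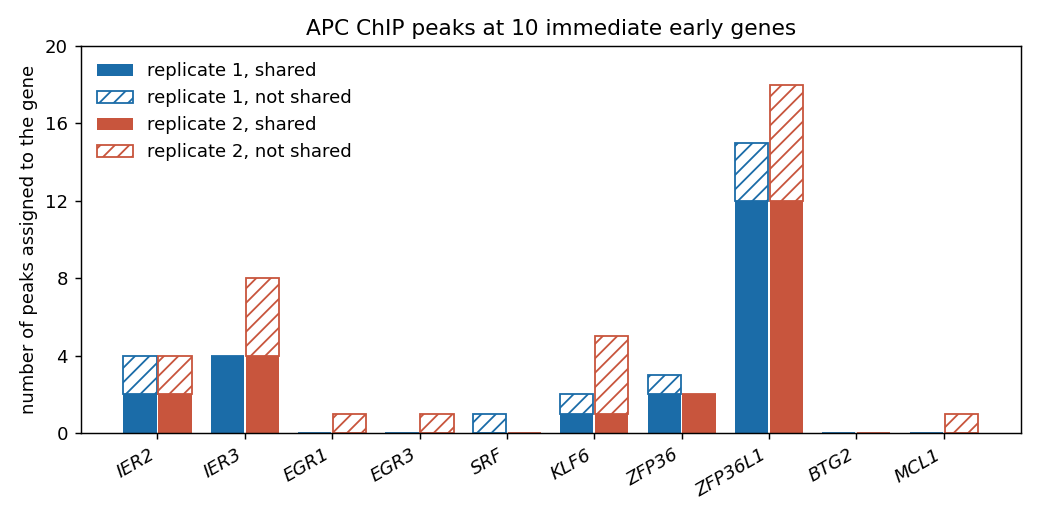
Number of APC ChIP peaks assigned to each of the 10 genes in replicate 1 (blue) and replicate 2 (red), filled where shared and hatched where not. ZFP36L1 had 15 and 18 peaks with 12 shared, IER3 had 4 and 8 peaks with 4 shared, and BTG2 had none.

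The distance of the shared regions from the transcription start site (TSS) differed between ZFP36L1 and the other genes. Within 5 kb of the TSS lay 5 of the 21, against 44.4% of all shared regions. By gene, these were 1 of 12 at ZFP36L1 and 4 of 9 at the other 4 genes, a share close to that of all regions. Within 50 kb lay 4 of 12 at ZFP36L1 and 8 of 9 at the other genes, against 73.7% of all. The 8 regions more than 100 kb away all belonged to ZFP36L1. Outside ZFP36L1, the nearest shared region of each gene was 105 bp from the TSS at IER3, 2919 bp at ZFP36, 4540 bp at IER2 and 67332 bp at KLF6. These distances are the authors', and GENCODE holds another IER2 start 3033.5 bp from that region. In the authors' annotation, the 29 replicate 1 peaks comprised 14 intergenic, 9 intronic and 4 promoter peaks and 2 at a transcription termination site (TTS). The 40 replicate 2 peaks comprised 20 intergenic and 11 intronic peaks, and 2 each in promoters, exons, 3′ UTRs and TTS, with 1 in a 5′ UTR.

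**Figure D2:**
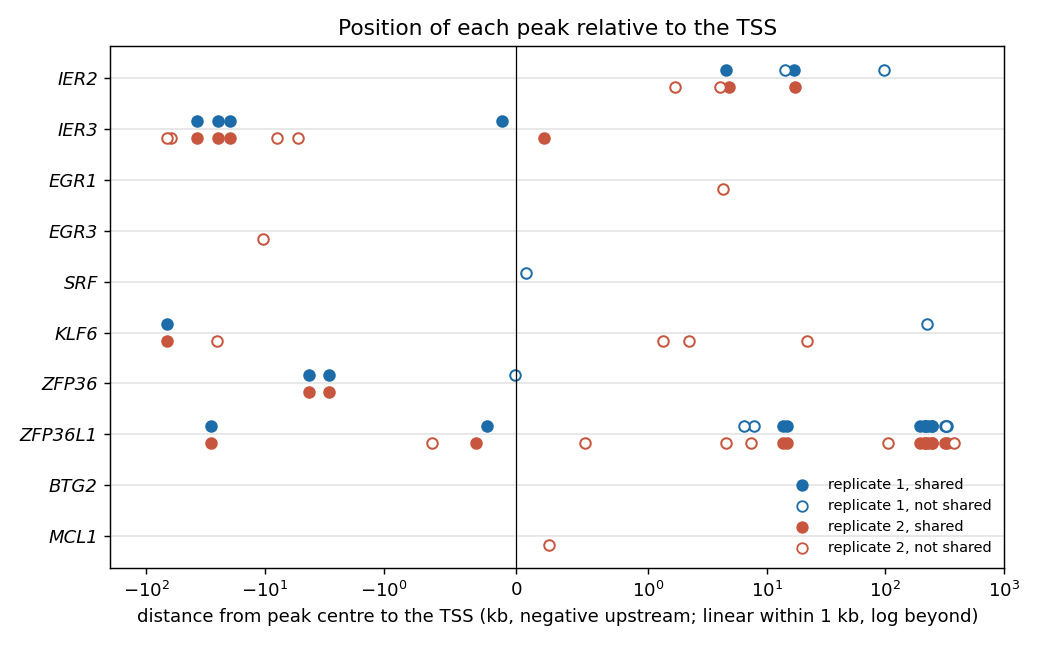
Distance from each peak centre to the TSS in kb (negative upstream, linear within 1 kb and logarithmic beyond), by gene, for replicate 1 (blue, upper) and replicate 2 (red, lower), filled where shared. Shared peaks lay upstream at ZFP36 and KLF6, downstream at IER2, and on both sides at ZFP36L1. Distances are the authors', and those at ZFP36L1 used more than 1 annotated start.

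AP-1 sites were present in most of the windows at ZFP36L1 and in some at 3 other genes. AP-1 binds TGACTCA or its reverse complement TGAGTCA, and these letters were searched on both strands of the 300 bp around the centre of each shared replicate 1 peak (hg19). They were found in 12 of the 21 windows, against 30.5% of the windows of all shared regions. Among regions over 5 kb from a TSS they were found in 11 of 16, against 47.4%, and within 5 kb in 1 of 5, against 9.22%. By gene, the motif stood in 9 of 12 windows at ZFP36L1, in 1 of 4 at IER3, in 1 of 2 at ZFP36, in the window at KLF6 and in neither window at IER2. The ZFP36L1 windows belong to 1 locus, and 7 of the 9 with a match lay in the gene RAD51B by its GENCODE extent. Outside RAD51B the motif stood in 5 of 13 windows, close to the share of all, and in 4 of the 8 that lay over 5 kb from a TSS. Over the genes other than ZFP36L1 it stood in 3 of 9 windows, and in 2 of the 5 over 5 kb. The high count therefore rests on the RAD51B regions. Matches lay from -136.5 to 135 bp from the peak centre, a range limited by the 300 bp that were searched. Stretches from 7 of the 12 windows are shown because they carry the motif at 4 different genes. Those at ZFP36L1 were picked by hand from 9. All are on the plus strand of hg19, with AP-1 letters in capitals:
IER3 region 25054 bp upstream, chr6:30737483-30737549: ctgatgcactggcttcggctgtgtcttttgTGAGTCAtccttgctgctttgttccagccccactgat
KLF6 region 67332 bp upstream, chr10:3894857-3894923: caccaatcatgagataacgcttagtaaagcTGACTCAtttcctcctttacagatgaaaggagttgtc
ZFP36 region 2919 bp upstream, chr19:39894596-39894662: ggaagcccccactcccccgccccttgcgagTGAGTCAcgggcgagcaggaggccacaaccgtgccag
ZFP36L1 region 13743 bp downstream, chr14:69246866-69246932: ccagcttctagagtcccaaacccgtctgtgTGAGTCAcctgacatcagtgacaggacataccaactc
ZFP36L1 region 14821 bp downstream, chr14:69245695-69245761: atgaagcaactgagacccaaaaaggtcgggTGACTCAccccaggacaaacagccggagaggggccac
ZFP36L1 region 217096 bp downstream, in RAD51B, chr14:69043498-69043564: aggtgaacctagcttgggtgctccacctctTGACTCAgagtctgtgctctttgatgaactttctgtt
ZFP36L1 region 244746 bp downstream, in RAD51B, chr14:69015879-69015945: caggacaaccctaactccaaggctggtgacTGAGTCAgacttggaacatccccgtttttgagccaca
The motif is a description of the sequence and does not show that AP-1 was bound.

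Other motifs were less frequent in the same windows. TCF7L2, the main DNA-binding partner of β-catenin in colon, binds CAAAG preceded by a pair of letters that are each A or T. This was found in 5 windows, against 28.4% of all shared regions, 4 at ZFP36L1 and 1 at the IER3 promoter. The ETS core CCGGAAG was found in 3 windows, against 11.5%. The cAMP response element TGACGTCA was found in 1 window, 37488 bp upstream of IER3, against 2.18%. The CArG box was found in none of the 21, against 1.26%. The SP1 core GGGCGG was found in 4 windows, against 33.4%, and the E-box CACGTG in 2, against 18.3%. All of the SP1 and E-box windows were among the 5 that lay within 5 kb of a TSS. Within 5 kb lay 44.4% of all shared regions, and the shares for these motifs were not split by distance. The EGR1 site was searched as GCGGGGGCG. A variant with the letters GCGTGGGCG was searched too, and either was found in 1 window, against 3.36%, where it overlapped an SP1 core. No other pair of motifs overlapped in these windows.

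SRF, the factor that drives much of the immediate early response and is itself an immediate early gene, had a single narrow peak at its own TSS in replicate 1. The peak was 176 bp wide (chromosome 6, 43139026 to 43139200, hg19) with its centre 80 bp downstream of the TSS, and 84.8% of replicate 1 peaks were wider. The nearest replicate 2 centre was 10767 bp away, in a region assigned to CUL9, so the SRF peak was not shared. The 70 bases before the peak held a pair of CArG boxes, the sites that SRF binds, which is why they are shown here with the boxes in capitals on the plus strand:
SRF promoter, chr6:43138956-43139025: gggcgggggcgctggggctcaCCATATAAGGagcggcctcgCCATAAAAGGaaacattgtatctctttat
The boxes ended 40 and 20 bp before the start of the peak, and the peak itself held none. In the RefSeq promoter table (GRCh38.p14), 250 bases upstream of each gene start, 7 of the 10 genes were matched, with 9 promoters. IER3, MCL1 and EGR3 had no match, so their promoters were not searched. A CArG box stood in 2 of the 7 genes, EGR1 and SRF, with 2 boxes each. By promoter this was 2 of 9, against 1.16% of all 35116 promoters. An AP-1 match stood in none of the 9, against 4.20% of all promoters.

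EGR1 and EGR3, zinc finger transcription factors induced by growth factors, each had 1 peak, in replicate 2 alone. The EGR1 peak was 849 bp wide and lay at the TTS (chromosome 5, 137805063 to 137805910), 4305 bp downstream of the TSS, and 13.5% of replicate 2 peaks were wider. The nearest replicate 1 centre was 636090.5 bp away. The EGR3 peak was 531 bp wide, in a CpG island 10364 bp upstream of the TSS (chromosome 8, 22560915 to 22561444). Its width was close to the replicate 2 median of 532 bp. Neither EGR gene had a shared region.

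IER2, a nuclear protein linked to growth control, had 2 shared regions on its 3′ side. The first lay at the TTS, 4540 bp downstream of the TSS (chromosome 19, 13265510 to 13266135), with widths of 627 bp in replicate 1 and 900 bp in replicate 2. The second was intergenic, 17131 bp downstream (13278307 to 13278519), with widths of 214 and 557 bp. Both were wider in replicate 2, with ratios of 1.44 and 2.60. Their centres were 244.5 and 159.5 bp apart in the replicates, and with a limit of 100 bp IER2 would have no shared region. Peaks found in 1 replicate alone lay 14194 bp and 97755 bp downstream in replicate 1, the farther one in intron 30 of CACNA1A, with widths of 406 and 150 bp. In replicate 2 alone, a peak of 569 bp lay in intron 1 and one of 342 bp in the 3′ UTR. The intron 1 peak was 1706 bp from the TSS by the authors' distance, but 199.5 bp from another IER2 start in GENCODE. From that start the shared regions lay 3033.5 and 15624 bp downstream. The 3′ UTR peak centre was 460.5 bp from the nearest replicate 1 centre, just outside the limit, although the peaks overlapped by 23 bp.

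KLF6, a zinc finger factor of the Krüppel-like family, had its shared region far upstream. The region lay 67332 bp from the TSS (chromosome 10, 3894489 to 3895121), and its widths of 634 bp in replicate 1 and 612 bp in replicate 2 were nearly equal, with a ratio of 0.965. The centres were 16 bp apart. It held 2 AP-1 matches, of which the KLF6 stretch above shows 1. In replicate 2 there were another 4 peaks, of 408 to 612 bp, including 2 in intron 1 at 1331 and 2217 bp downstream of the TSS, none of them shared. In replicate 1 the only other peak was 148 bp wide and lay 224492 bp downstream in an L1PA5 repeat. With peaks limited to 10 kb from the TSS, KLF6 would have no shared region.

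IER3, a stress-induced protein that affects cell survival, had a shared region at its TSS and 3 upstream. The region at the TSS was 806 bp wide in replicate 1 (chromosome 6, 30712030 to 30712834) and 1602 bp wide in replicate 2 (30711314 to 30712914), wider than all but 5.43% and 1.58% of the peaks in those lists. Its centres were 318 bp apart, the farthest of the 21 and just inside the limit. The upstream regions lay 19722, 25054 and 37488 bp from the TSS. The middle one was the widest shared region of the 10 genes, with 1018 bp in replicate 1 (30736873 to 30737889) and 1617 bp in replicate 2, and ranked 44 of 3984 shared regions by the mean of its width ranks in both lists. Its replicate 1 window is the one with an AP-1 match. The region at 19722 bp was narrower in replicate 2 (563 bp) than in replicate 1 (639 bp), and that at 37488 bp was wider, with 758 bp in replicate 2 and 404 bp in replicate 1. Replicate 2 added 4 peaks of 553 to 774 bp, of which the 2 farthest upstream lay in LTR repeats. A replicate 1 peak assigned to FLOT1, the gene next to IER3, overlapped the replicate 2 peak at the IER3 TSS by 274 bp. FLOT1 had a shared promoter region of its own 31 bp apart in the replicates.

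**Figure D3:**
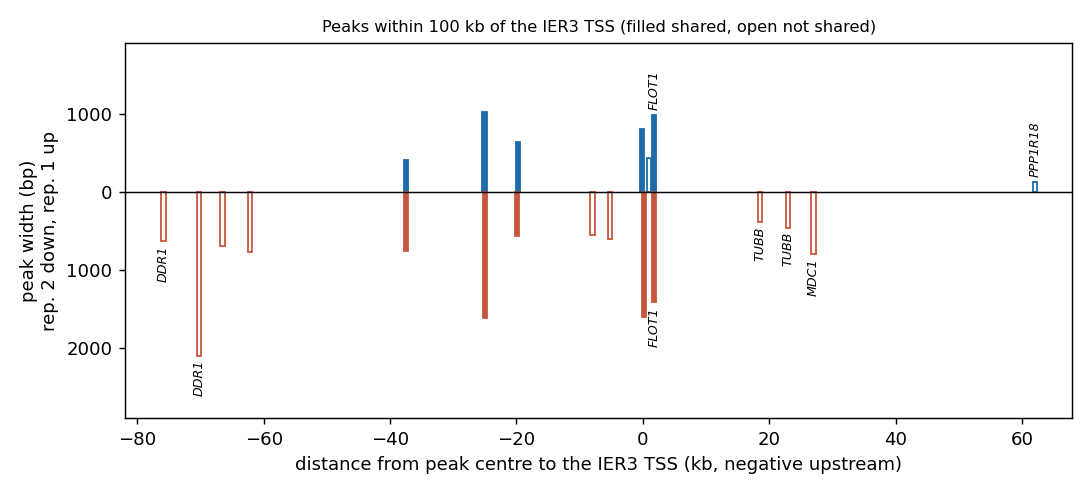
Widths of all peaks within 100 kb of the IER3 TSS, replicate 1 above the line and replicate 2 below, filled where shared, by distance from the TSS in kb; peaks of other genes carry the gene name, except the open FLOT1 bar beside the TSS. Shared IER3 regions stood at the TSS and at 3 positions upstream, the widest 25054 bp away.

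MCL1, an anti-apoptotic member of the BCL2 family, had 1 peak, in replicate 2 alone. It was 409 bp wide in exon 1, with its centre 253 bp downstream of the TSS (chromosome 1, 150551758 to 150552165), and 71.2% of replicate 2 peaks were wider. BTG2, an antiproliferative protein that recruits deadenylases to mRNA, had no peak in either replicate. The peaks nearest to it were assigned to MYBPH, 127379 bp away in replicate 1 and 127217.5 bp away in replicate 2. No shared region was therefore assigned to either gene.

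ZFP36, which encodes tristetraprolin, had 2 shared regions upstream of its TSS, both in CpG islands. The farther lay 4253 bp from the TSS (chromosome 19, 39892990 to 39893479), with widths of 491 bp in replicate 1 and 447 bp in replicate 2. The nearer lay 2919 bp away (39894470 to 39894666), with widths of 198 and 789 bp, and its ratio of 3.98 was the highest of the 21. The AP-1 match was in this region. Another peak, 401 bp wide, lay at the TSS in replicate 1 alone, with its centre 9 bp upstream. Each shared region of ZFP36 was narrow in 1 of the replicates, and when only the wider 50% of peaks was kept, ZFP36 had no shared region.

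ZFP36L1, a relative of ZFP36 with the same kind of RNA binding, had 15 peaks in replicate 1 and 18 in replicate 2. Only 8 protein-coding genes, ZFP36L1 included, had at least 12 shared regions. Near the gene, 4 regions were shared (chromosome 14). The promoter region lay 216 bp upstream of the TSS (69262956 to 69263396), with widths of 442 bp in replicate 1 and 551 bp in replicate 2. The authors' distances at ZFP36L1 did not all use the same annotated start. A pair of regions lay downstream of the gene, at authors' distances of 13743 bp (widths of 467 and 682 bp) and 14821 bp (widths of 362 and 481 bp). From the gene start beside the promoter region, the pair lay 16081.5 and 17160 bp downstream. Both held an AP-1 match. The last lay 28742 bp upstream, with widths of 427 and 547 bp and no match. All 4 were wider in replicate 2.

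The other 8 shared regions of ZFP36L1 lay 194921 to 329087 bp downstream of its TSS. All were inside RAD51B (68286496 to 69196935 in GENCODE), a DNA repair gene on the opposite strand. The authors' annotation called the one at 194921 bp intergenic. In GENCODE the nearest protein-coding start to each of the 8 was that of a transcript that begins inside RAD51B. It lay 53317.5 to 187483.5 bp away and was not the start of the gene. Assignment to ZFP36L1 was the authors', and the regions were not shown to act on it. Their widths ran from 185 to 720 bp in replicate 1 and from 314 to 1099 bp in replicate 2. The widest in replicate 1 lay at 217096 bp, with 720 bp there and 1013 bp in replicate 2. The widest in replicate 2 lay at 194921 bp, with 611 bp in replicate 1 and 1099 bp in replicate 2. One region, at 215908 bp, was narrower in replicate 2 (314 bp) than in replicate 1 (359 bp). An AP-1 match stood in 7 of the 8, all but the one at 228809 bp, which lay in a simple repeat.

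**Figure D4:**
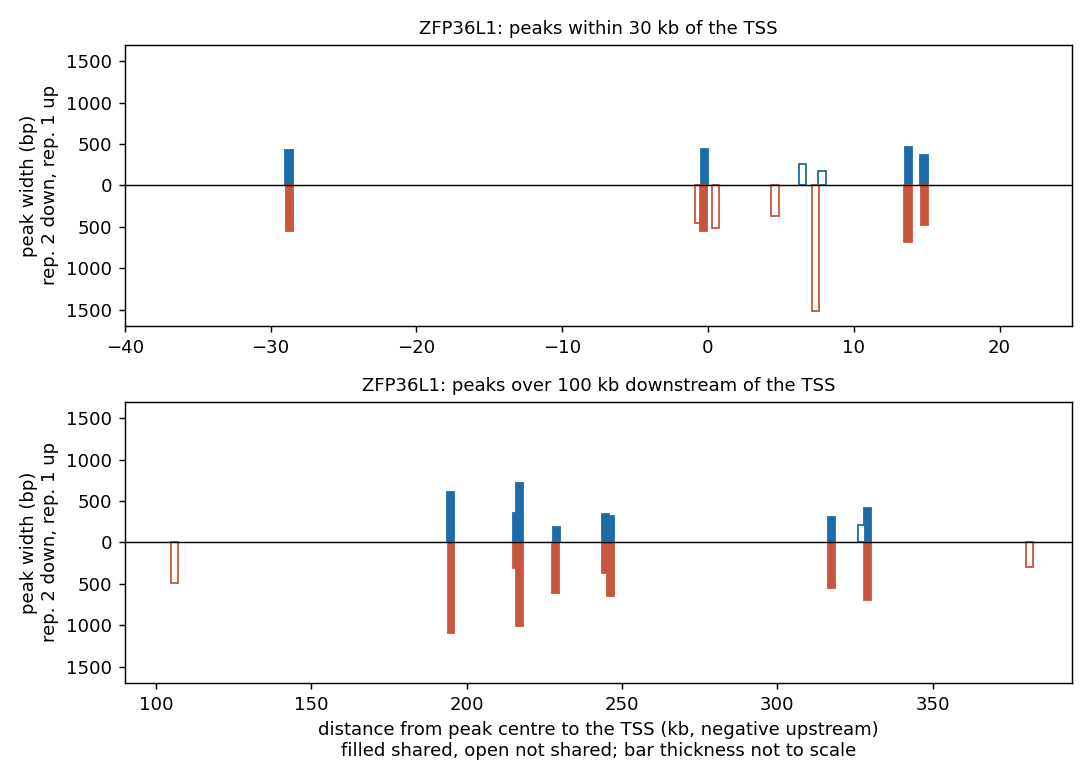
Widths of ZFP36L1 peaks by distance from the TSS in kb, replicate 1 above the line and replicate 2 below, filled where shared, near the gene (upper panel) and over 100 kb downstream (lower panel). Near the gene 4 regions were shared, and 8 were shared in RAD51B. Distances are the authors' and used more than 1 annotated start.

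Peaks of ZFP36L1 that were not shared included the widest unshared peak of the 10 genes. It was 1513 bp wide in replicate 2 (69252486 to 69253997), 7390 bp downstream of the TSS, and only 1.88% of replicate 2 peaks were wider. A replicate 1 peak of 174 bp (69252729 to 69252901) lay inside it, but its centre was 426.5 bp away, just outside the limit. Another replicate 1 peak, 263 bp wide, lay at the TTS. In replicate 2 there were also peaks of 375 to 513 bp in the 5′ and 3′ UTRs and 631 bp upstream of another annotated start, that of NM_004926. The peak upstream of NM_004926 lay 1707.5 bp downstream of the gene start beside the shared promoter region. The remaining unshared peaks in RAD51B were 213 bp wide in replicate 1, and 494 and 299 bp wide in replicate 2. The authors' annotation called the peak of 494 bp intergenic.

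Shared regions of these genes were wider in replicate 2, as were shared regions in general. Of the 21, 17 were wider in replicate 2 and 4 were narrower. The ratio of replicate 2 to replicate 1 width had a median of 1.46 and ran from 0.875 to 3.98, against a median of 1.51 over all shared regions, of which 90.4% were wider in replicate 2. All regions were counted as 3984 replicate 1 peaks, while 3819 replicate 2 peaks were shared. Some replicate 2 peaks therefore entered the median of all regions more than once, and none of the 21 did. The effect on the ratio was not tested. Centres of the 21 lay 4.5 to 318 bp apart with a median of 59 bp, against 64.5 bp for all. The replicate 1 peak lay wholly inside its partner in 14 of 21. Shared peaks had a median width of 427 bp in replicate 1 and 612 bp in replicate 2, and unshared ones 194.5 and 513 bp, against 432.5 and 644 bp for shared and 238 and 432 bp for unshared peaks of all genes.

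**Figure D5:**
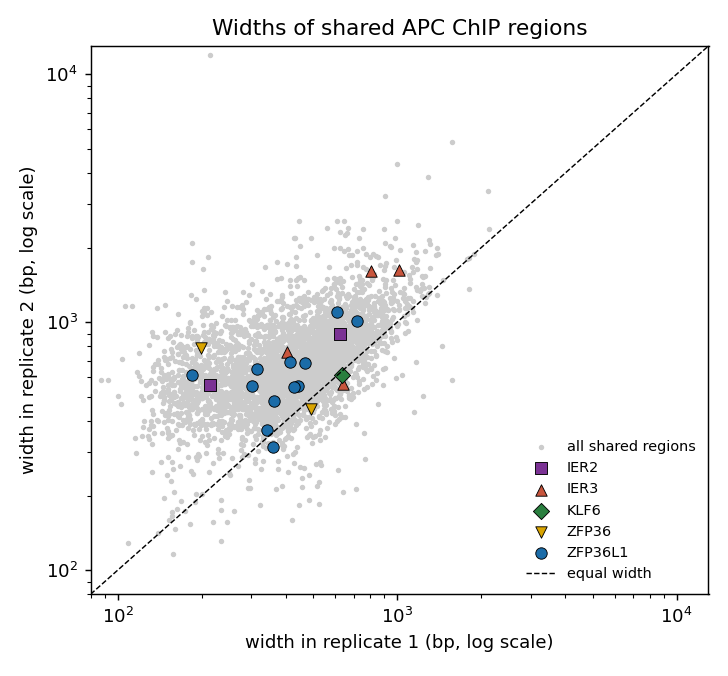
Width in replicate 2 against width in replicate 1 in bp (log scales) for the 21 shared regions of the 5 genes and for all 3984 shared regions in grey, with a dashed line at equal width. The 21 lie within the grey cloud, 17 above the line and 4 below it.

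Other immediate early genes, taken as gene lists written with earlier results of these data known, also had shared regions. This choice of genes may raise the shares given below. Of 77 in 4 lists outside the 10, 29 had at least 1 shared region, which is 37.7% against 11.4% of protein-coding genes. With SRF cofactors and paralogs of the 10 added, it was 34 of 98 (34.7%). Among 29 feedback and signaling genes 13 did, with 13 regions each at ERRFI1, an inhibitor of EGF receptor signaling, and TRIB1, a pseudokinase, 11 at PHLDA1 and 2 at SPRED2. Among 17 secreted and surface genes 6 did, including AREG, an EGF receptor ligand with 12 regions, and LIF with 6. The nearest lay 69546 bp from the TSS at AREG and 5856 bp at LIF. Among 23 transcription factor genes 7 had a shared region, with 7 assigned to BHLHE40 and 3 each to ID1, HES1 and KLF4. The nearest lay 586, 124, 142 and 265708 bp from the TSS, in that order. Of the 8 AP-1 genes 3 had a shared region, with 3 regions at JUNB and 1 each at FOS and FOSB. Of the 6 genes for SRF cofactors only ELK4 did. Of the 22 paralogs of the 10 genes 6 did, among them BCL2L1, a relative of MCL1, with 3 and KLF10, a relative of KLF6, with 2.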

How the data were processed

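APC ChIP-seq and input libraries of HCT-116 cells were single-end reads that the authors aligned to hg19 with BWA. MACS2 peaks were called separately for every replicate, with the matching input as control (versions not given in the sources used here), with the threshold adjusted by the authors to keep peaks at AXIN2, DKK1 and MYC. Annotation used RefGene. One peak list was deposited per ChIP replicate, beside a table of distances between replicate centres. Positions and distances were deposited in bp. The column that the authors called a score equalled the end minus the start plus 2 in every row, and was used as the width. Depth was unknown. In 9 replicate 2 rows a spreadsheet had changed the gene name to a date, and the name was restored from the description.

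Peaks were taken by gene name, paired by centres under 400 bp apart, and compared with all peaks and with 19257 protein-coding genes (RefSeq symbols, GENCODE 44 on GRCh37). The deposited distances matched for all 29 replicate 1 peaks, within 0.5 bp. Motifs were searched in hg19 with Python 3.11.15. The pairing and motif scripts were tested on simulated data. The AP-1 stretches shown at ZFP36L1 were picked by hand from 9 after their values were seen. The 10 genes, the lists and the rule for genes named from other lists (most shared regions first, then nearest the TSS) were chosen with earlier results of these data known. Alternatives were other pairing limits, overlap, the wider 50% of peaks, other start sites and distance limits, whole peaks for motifs, and leaving out a replicate. Alternatives that leave out a replicate used the other list alone.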

Additional observations from a re-analysis of the deposited data

How the results depend on the processing

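Of 72 alternatives computed, 52 left the value within 1.5 times, or within 1 SD for widths, and 20 did not. With the wider 50% of peaks there were 15 peaks in replicate 1 and 25 in replicate 2, 12 shared in each, 3 shared regions within 5 kb, 6 with an AP-1 match and 20 of the 98 genes in the other lists with a shared region. With peaks within 10 kb of the TSS alone there were 9 and 17 peaks, 5 shared in each and 1 AP-1 match. With centre limits of 100 or 200 bp, 3 shared regions lay within 5 kb. With TSS limits of 1 and 50 kb in place of 5 kb the count was 2 and 12. With the nearest protein-coding TSS, 14 regions were shared, and 5 of them held an AP-1 match. Leaving out either replicate counts every peak of the other. It gave 6 to 8 of the 10 genes, 7 to 14 peaks within 5 kb and 46 to 53 of the 98 listed genes. An AP-1 match then stood at 13 of the 29 replicate 1 peaks and 17 of the 40 replicate 2 peaks. No paired analysis was possible because the values came from 1 peak list per ChIP replicate and no input value. The limits are 2 cultures, unknown depth, a width that depends on depth and threshold, and assignment of peaks to genes by the nearest start site.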
